A study of Mus musculus with 2 samples.

Results

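Mir193b, Mir365-1, Mir193a and Mir365-2 are 4 microRNA (miRNA) genes that lie in 2 paralogous clusters of the mouse genome, Mir193b with Mir365-1 on chromosome 16 and Mir193a with Mir365-2 on chromosome 11. They were taken by symbol from the 1973 miRNA genes counted in embryonic limb, after Ensembl gene identifiers had been mapped to GENCODE symbols, and all 4 had a row in the count tables. Small RNA was sequenced from limbs of mixed-sex B6NCrl mouse embryos at embryonic day 15.5, with 2 biological replicates, from 78 pooled embryos in replicate 1 and 62 in replicate 2. The embryos were labelled healthy, and no second tissue, stage, genotype or treatment was part of the series. Levels were therefore described, and the 2 libraries were compared with each other. A bulk limb holds many cell types, and fewer cells of a type cannot be told apart from less RNA per cell.

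A miRNA gene is transcribed into a hairpin, from which Drosha and Dicer cut a pair of short arms named 5p and 3p. An arm loaded into an Argonaute protein represses messenger RNAs that pair with its seed, the bases 2 to 8 from its 5′ end. The miR-193b and miR-365 pair is known from brown fat, where its loss blocked the differentiation of cultured brown preadipocytes, although mice without Mir193b and Mir365-1 do form brown fat. The 3p arm of miR-365 is also known as a mechanosensitive miRNA of chondrocytes, where it acts on Hdac4, an inhibitor of chondrocyte hypertrophy. Limb at this stage holds both cartilage and mesenchyme. The counts are per gene, and which arm a read came from is not given by them.

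The mature arms are shown because their likeness bears on which reads can be assigned to 1 gene. RefSeq on GRCm38.p6 listed a hairpin and both arms for all 4 genes, 7 distinct arms in all with 5 distinct seeds. Capitals mark the seed, and sequences run 5′ to 3′. The first pair of lines holds the 3p arms of the Mir193 genes, the next pair their 5p arms, and the last lines the arms of the Mir365 genes.
miR-193a-3p: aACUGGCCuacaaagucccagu
miR-193b-3p: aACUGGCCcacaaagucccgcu
miR-193a-5p: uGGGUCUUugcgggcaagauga
miR-193b-5p: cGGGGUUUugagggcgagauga
miR-365-1-5p: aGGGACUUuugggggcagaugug
miR-365-2-5p: aGGGACUUucaggggcagcugug
miR-365-3p, from both genes: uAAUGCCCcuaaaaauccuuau

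The 3p arms of Mir193a and Mir193b shared the seed ACUGGCC and differed at 3 of 22 bases (U9C, A20G and G21C from miR-193a-3p to miR-193b-3p, counted from the 5′ end). Their 5p arms differed at 5 of 22 bases, and the substitutions U5G and C6U lay in the seed, so these arms have different seeds. The 5p arms of Mir365-1 and Mir365-2 shared the seed GGGACUU and differed at 3 of 23 bases (U10C, G11A and A19C). The 3p arm of the Mir365 genes was the same 22 bases in both. No other gene listed by RefSeq had an arm with any of these 5 seeds. All differences between the Mir193 3p arms and between the Mir365 5p arms lay outside the seed.

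**Figure D1:**
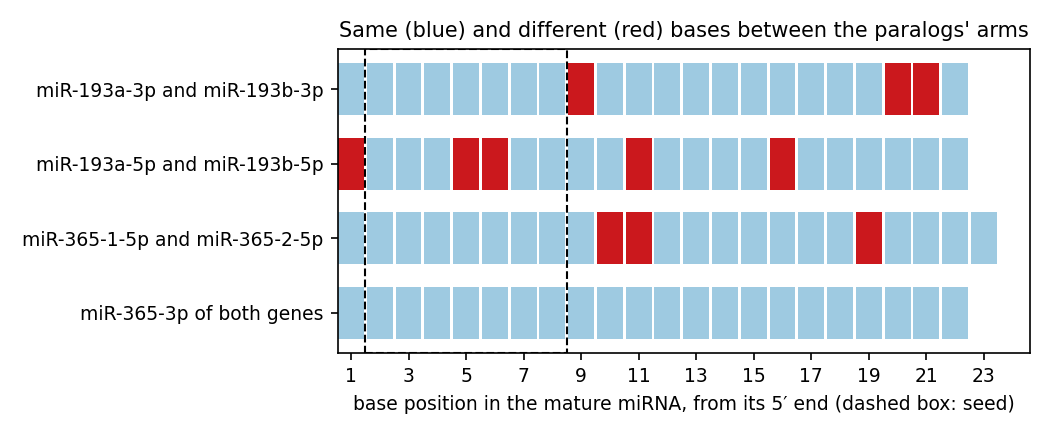
Bases that are the same (blue) or different (red) between the arms of paralogous genes, by position from the 5′ end, with the seed in a dashed box. The 3p arms of Mir193a and Mir193b differ at 3 positions after the seed, their 5p arms at 5 positions of which 2 are in the seed, the 5p arms of the Mir365 genes at 3 positions, and the 3p arm of the Mir365 genes at 0.

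The Mir365 hairpins had a run of 27 bases in common, shown in capitals below, which held the whole 3p arm with 3 bases before it and 2 after it.
Mir365-1 hairpin: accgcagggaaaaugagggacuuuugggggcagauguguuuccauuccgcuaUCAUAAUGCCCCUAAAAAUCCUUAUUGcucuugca
Mir365-2 hairpin: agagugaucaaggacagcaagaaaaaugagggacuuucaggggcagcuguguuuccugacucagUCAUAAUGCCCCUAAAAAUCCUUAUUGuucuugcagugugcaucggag
A read inside that run aligns equally well to both genes. The tables give reads with several alignments on a line of their own, while the rule by which reads were counted is not given in the sources used here. If such reads entered no gene, reads of miR-365-3p as listed are in neither Mir365 count, and the rows hold reads of the 5p arms and reads that reach beyond the 27 bases. Of the 16 counted genes with 2 listed arms, both identical to those of other genes, 4 had a count in either library, and the median was 0 CPM. The highest of them were Mir199a-2, with 1276 and 1727 counts, and Mirlet7c-2, with 1156 and 1312. Both were chosen after their values were seen. The Mir193 hairpins had a longest common run of only 10 bases, so whole reads of their arms differ in sequence. Their 3p arms differ only by U9C, A20G and G21C, and the number of mismatches an alignment may hold is not given. How reads shortened at the 3′ end were assigned is therefore not known. Against the 1004 other hairpins listed by RefSeq, no 18-base stretch of Mir193b or Mir193a recurred, and the 1 hairpin that held such a stretch of Mir365-1 or Mir365-2 was that of the other Mir365 gene.

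The mm10 position of Mir193b (ENSMUSG00000076972.2) is chromosome 16, bases 13449523 to 13449601, plus strand. Mir365-1 (ENSMUSG00000065449.1) follows it on the same strand at 13453840 to 13453926, after a gap of 4238 bases. GENCODE M21 annotates no other gene over them on that strand, and both lie in intronic sequence of the antisense gene Gm15738 on the minus strand. The nearest coding gene upstream on their strand is Mrtfb, a coactivator of serum response factor, which ends 31993 bases before Mir193b. On chromosome 11, also on the plus strand, Mir193a (ENSMUSG00000065395.1) spans 79711969 to 79712034, and Mir365-2 (ENSMUSG00000065489.1) spans 79726400 to 79726511, after a gap of 14365 bases. No gene on either strand overlaps these hairpins, and the nearest coding gene upstream on their strand is Rab11fip4, a gene of endosomal recycling, which ends 13945 bases before Mir193a. Each cluster thus has its Mir193 gene first and its Mir365 gene second.

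**Figure D2:**
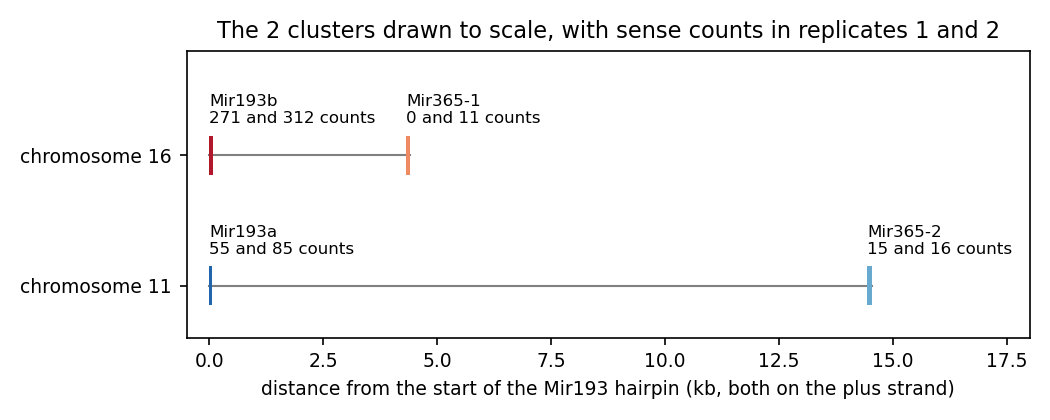
The 2 clusters drawn to scale by distance in kb from the start of the Mir193 hairpin, with sense counts in replicates 1 and 2 above each hairpin. In both clusters the Mir193 gene has more counts than the Mir365 gene downstream of it.

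The Mir193 genes led their clusters in both libraries, and the chromosome 16 cluster stood above the chromosome 11 cluster. Mir193b had 271 sense counts in replicate 1 and 312 in replicate 2. Mir193a had 55 and 85, Mir365-2 had 15 and 16, and Mir365-1 had 0 and 11. None of the 4 had an antisense count in either library. Sense counts of all miRNA genes summed to 4263630 in replicate 1 and 5151214 in replicate 2, and counts were divided by these totals and multiplied by 1000000 (CPM). An arm is 22 or 23 bases long and a read can cover it whole, so counts were compared between genes without scaling by length.

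Mir193b had 63.6 CPM in replicate 1 (Wilson 95% interval 56.4 to 71.6) and 60.6 CPM in replicate 2 (54.2 to 67.7), a mean of 62.1 ± 2.12 CPM (SD, n = 2). By mean CPM it was 214th of the 340 genes detected with at least 10 counts in both replicates, and 37.1% of the detected genes were lower. Mir193a had 12.9 CPM (9.91 to 16.8) and 16.5 CPM (13.3 to 20.4), a mean of 14.7 ± 2.55 CPM, at place 257. The Mir193 genes were thus in the lower part of the detected range, whose median was 167 CPM.

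Mir365-2 had 3.52 CPM in replicate 1 (2.13 to 5.81) and 3.11 CPM in replicate 2 (1.91 to 5.05), a mean of 3.31 ± 0.291 CPM (SD, n = 2), at place 328 of 340. Mir365-1 had no count in replicate 1, which allows up to 3 counts or 0.704 CPM (Wilson upper limit 0.901), and 2.14 CPM in replicate 2 (1.19 to 3.82). It did not reach the minimum of 10 counts in both, so 3 of the 4 genes were detected. In each library the intervals of Mir193b, Mir193a and Mir365-2 lay apart from one another, in that order. The intervals of Mir365-2 and Mir365-1 overlapped in replicate 2 and not in replicate 1, so their order was resolved in 1 of the 2 libraries. How far these values of the Mir365 genes hold reads of the shared 3p arm is not known, so they cannot be read as levels of miR-365-3p.

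**Figure D3:**
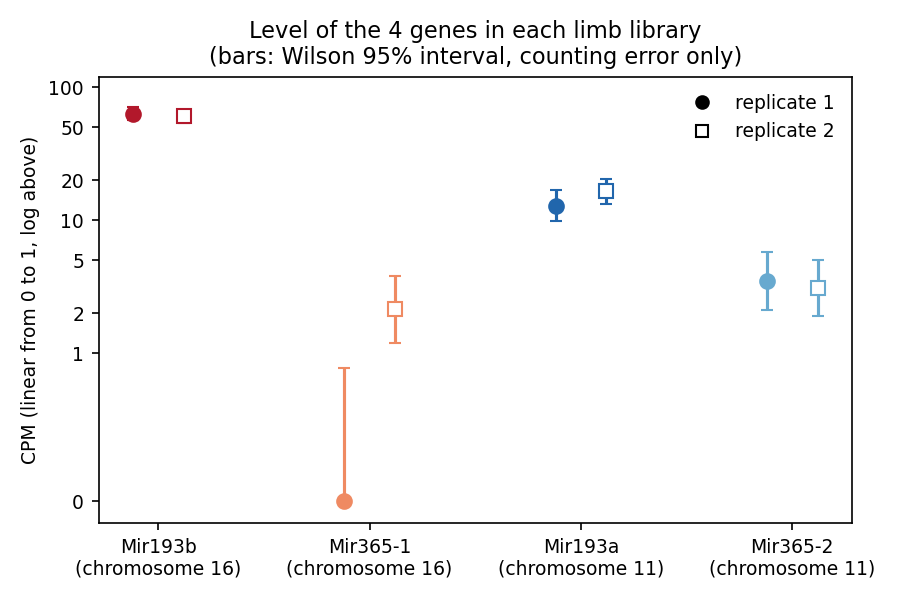
CPM of each gene in replicate 1 (filled circles) and replicate 2 (open squares), on an axis that is linear from 0 to 1 and logarithmic above, with Wilson 95% intervals for counting error. Mir193b sits near 62.1 CPM and Mir193a near 14.7 CPM in both libraries, Mir365-2 between 3.11 and 3.52 CPM, and Mir365-1 at 0 and 2.14 CPM.

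Together the 4 genes took 341 sense counts in replicate 1 and 424 in replicate 2. Their share of the library was 0.00800% (Wilson 95% interval 0.00719 to 0.00889) and 0.00823% (0.00748 to 0.00905), a mean of 0.00811% ± 0.000165 (SD, n = 2). The Mir193 pair held 326 and 397 of these counts, and the Mir365 pair 15 and 27. The summed level of the 4 genes differed little between the libraries, with a log2 ratio of replicate 2 over replicate 1 of 0.04 (exact 95% interval -0.17 to 0.25).

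Within a library, Mir193b exceeded its paralog Mir193a by 4.93-fold in replicate 1 (exact 95% interval 3.68 to 6.71) and by 3.67-fold in replicate 2 (2.88 to 4.72). On chromosome 11, Mir193a exceeded Mir365-2 by 3.67-fold (2.04 to 6.99) and 5.31-fold (3.09 to 9.71). On chromosome 16, Mir193b was at least 90.3-fold higher than Mir365-1 in replicate 1, with the floor of 3 counts in that library in place of 0, and the exact 95% interval, which also covers the counting error of Mir193b, begins at 73.0. In replicate 2 it was 28.4-fold higher (15.6 to 57.4). The Mir193 gene was thus the higher one of its cluster in 2 of 2 libraries on both chromosomes. The factor on chromosome 16 lay above that on chromosome 11 in each library, and the intervals of the 2 clusters did not overlap in replicate 2. In replicate 1 the interval on chromosome 16 begins at 73.0 and has no upper limit, and that on chromosome 11 ends at 6.99. In both clusters the count of the Mir365 gene may lack reads of the arm it shares, so these factors need not be ratios of all mature products.

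The chromosome 16 cluster had 3.87 times the counts of the chromosome 11 cluster in replicate 1 (2.97 to 5.11) and 3.20 times in replicate 2 (2.55 to 4.04). The Mir193 pair had 21.7 times the counts of the Mir365 pair in replicate 1 (13.0 to 39.3) and 14.7 times in replicate 2 (9.95 to 22.6). Counts of the Mir365 pair may lack reads of its shared 3p arm, so this factor need not be a ratio of all mature products. Of the 5 ratios compared between the libraries, which have genes in common, Mir193b over Mir365-1 passed (Fisher's exact test, two-sided, p = 0.00129, adjusted p = 0.00647 by Benjamini-Hochberg over the 5). That result rests on the 0 and 11 counts of Mir365-1, which was not detected by the minimum and had counts in replicate 2 alone. It describes these counts and does not show a difference between the pools. The other 4 ratios had adjusted p-values from 0.328 to 0.421 in the same exact test. The ratio of Mir193b to Mir193a and that of the Mir193 pair to the Mir365 pair were added after the counts had been seen.

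None of the detected genes of these clusters, Mir193b, Mir193a and Mir365-2, passed a test between the libraries. Each detected gene was tested with an exact two-sided binomial test given the library totals, with Benjamini-Hochberg adjustment over all 340 and a threshold of 0.05. Of the 340 detected genes 50.9% passed it, and of the 3 detected members 0 did, also 0 at an unadjusted p under 0.05. Mir193b had a log2 ratio of -0.07 (exact 95% interval -0.31 to 0.17, adjusted p = 0.678, exact binomial test). Mir193a had 0.36 (-0.15 to 0.87, adjusted p = 0.256, exact binomial test), and Mir365-2 had -0.18 (-1.29 to 0.94, adjusted p = 0.828, exact binomial test). The ratio of replicate 2 over replicate 1 had exact 95% limits of 0.807 and 1.13 for Mir193b, 0.901 and 1.83 for Mir193a, and 0.409 and 1.92 for Mir365-2. Of the 184 detected genes between 2 and 200 CPM, 25.0% passed.

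Mir365-1, which was not detected by that minimum, had 0 counts in replicate 1 and 11 in replicate 2. With the floor of 3 counts in replicate 1 it was at least 3.03-fold higher in replicate 2, and the exact 95% interval of the ratio begins at 2.08. In the test with no count minimum, 694 genes had a count in either library, of which 24.6% passed and 12.1% passed as higher in replicate 2. Mir365-1 was among them (p = 0.00148, adjusted p = 0.00667, exact binomial test), and the other 3 members were not. It entered that test through replicate 2 alone, the library where it is high, so its call describes these counts and does not show a difference between the pools. Its neighbour Mir193b, 4238 bases away, had a ratio of 0.953 between the same libraries, and its paralog Mir365-2, with the same 3p arm, had 0.883. Of all 1973 genes, 135 had a count of 0 in exactly 1 library, and Mir365-1 was the 1 gene among them with at least 10 counts in the other. The test covers counting error of reads only. No source used here names molecular identifiers, so reads copied from the same molecule cannot be told apart.

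**Figure D4:**
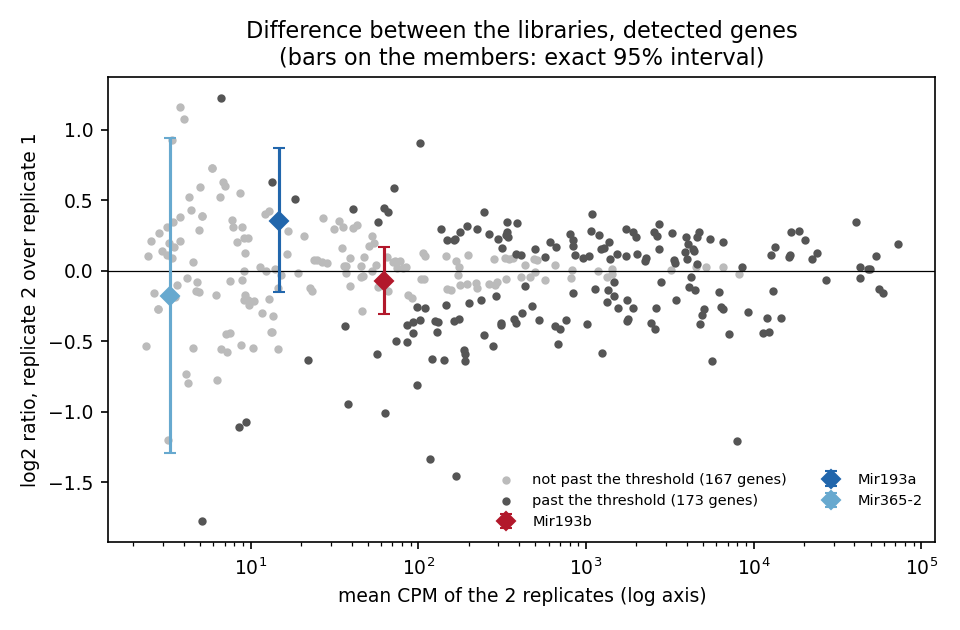
Log2 ratio of replicate 2 over replicate 1 against mean CPM (log axis) for the 340 detected genes, dark where the adjusted p was under 0.05, with Mir193b, Mir193a and Mir365-2 as diamonds with exact 95% intervals. The intervals of all 3 cross 0, and they widen from Mir193b at 62.1 CPM to Mir365-2 at 3.31 CPM.

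Genes with 1 arm in common with another gene had counted levels from 0 to 2791 CPM in limb, and the Mir365 genes were low among them. Of 582 counted genes with 2 arms listed by RefSeq, 513 shared no arm with another gene, 53 shared 1 and 16 shared 2. At least 10 counts in both libraries were found for 223 of the 513 (43.5%), for 37 of the 53 (69.8%) and for 3 of the 16 (18.8%). Over all genes of a class the median was 0.954 CPM with no shared arm, 23.3 CPM with 1 and 0 CPM with 2. Among the detected genes alone the medians were 263, 56.3 and 263 CPM. The highest gene of the first class, Mir203, was at 72531 CPM, and that of the other, Mirlet7f-2, at 2791 CPM. Mir365-2 was 39th and Mir365-1 43rd of the 53 genes with 1 shared arm. Of these 53, 45 had a count in either library, and 2 of the 45, Mir29b-1 and Mir29b-2, lay below Mir365-1. The shared arm was the 3p arm in 20 of the 53 genes, as for Mir365. In the class with no shared arm, Mir193b was 152nd and Mir193a 174th of 513. Which arm is the more abundant one in limb is not given by counts per gene, and Mirlet7f-2, Mir29b-1 and Mir29b-2 were chosen after their values were seen.

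**Figure D5:**
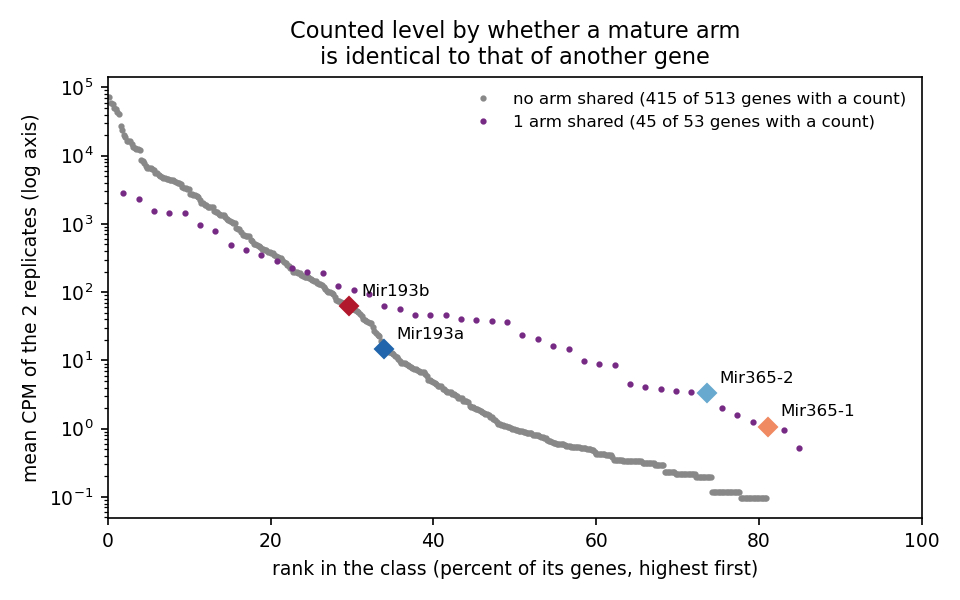
Mean CPM (log axis) by rank for counted genes whose arms are all their own (grey, 415 of 513 genes with a count) and for those with 1 arm identical to another gene's (purple, 45 of 53 genes with a count). Mir193b and Mir193a fall in the upper part of the first class, at places 152 and 174, and Mir365-2 and Mir365-1 near the low end of the other.

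Most other listed miRNAs of brown fat and cartilage had more counts than the Mir193 and Mir365 genes in these limbs. A list of 21 genes known from brown or beige adipocyte differentiation had 20 rows in the tables, and a list of 17 gene names known from cartilage had 16. The cartilage name without a row was Mir145, which was listed beside Mir145a. The lists had 6 genes in common, 30.0% of the first and 37.5% of the second, namely Mir193b, Mir365-1, Mir365-2, Mir455, Mir27b and Mir34a. Mir193b was 15th of 20 in the brown fat list and 13th of 16 in the chondrocyte list, and Mir365-2 and Mir365-1 were the last in both. Mir193b made up 0.0563% of the brown fat list's counts in replicate 1 and 0.0480% in replicate 2. Of the chondrocyte list it was 0.107% in both replicates. These shares depend strongly on the highest gene of each list. In the brown fat list that was Mir203 (288966 and 398120 counts), which is also the keratinocyte marker used here. In the chondrocyte list it was Mir140 (187350 and 218336 counts). The shares therefore do not place Mir193b within a programme of brown fat or cartilage.

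In the chondrocyte list, Mir140, which is needed for normal cartilage growth, had 43163 ± 1100.3 CPM (SD, n = 2). Mir455, which lies in the cartilage collagen gene Col27a1 and is also known from brown fat, had 3424 ± 348 CPM. Mir675, cut from the imprinted H19 transcript, was at 98.9 ± 12.4 CPM and Mir146 at 74.9 ± 0.825 CPM, the values closest above Mir193b. Mir199a-1 at 27.2 ± 4.94 CPM was the only listed gene other than the Mir365 genes that lay below it. In the brown fat list, Mir133b, a muscle miRNA that represses Prdm16, stood at 63.1 ± 29.9 CPM, next to Mir193b, and Mir30b at 81.2 ± 0.740 CPM. Mir30c-1, Mir26a-1 and Mir196a-1, whose 5p arms are each identical to that of another gene, were below Mir193b at 46.8 ± 0.831, 9.70 ± 1.11 and 8.94 ± 0.291 CPM. Mir196a-2, whose miRNA promotes brown adipocyte formation in white fat through Hoxc8, had 799 ± 102 CPM (SD, n = 2 for all). Its 5p arm is also identical to that of another gene. In the chondrocyte list, both arms of Mir199a-1, below Mir193b, are identical to those of other genes. The same holds for both arms of Mir199a-2 and the 5p arm of Mir181a-1, which lay above Mir193b. What shared arms contribute to these levels was not tested.

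Between the libraries, 9 of the 19 tested brown fat genes were higher in replicate 2 past the threshold and 2 were lower, with a median log2 ratio of 0.12. The background was 25.3% higher and 25.6% lower, with a median of 0.02 over the 340 detected genes. In the chondrocyte list 3 of 15 were higher and 6 lower, with a median of -0.05. Genes past the threshold in the brown fat list included Mir106b (log2 ratio 0.24) and Mir93 (0.22), of the cell cycle linked miR-106b-25 cluster, Mir155 (0.32) and Mir32 (0.29), all higher. Mir203 (0.19), Mir26b (0.13), Mir27b (0.14), Mir34a (0.12) and Mir196a-2 (0.26) were also higher, and Mir455 (-0.21) and Mir133b (-1.01) lower. In the chondrocyte list Mir140 (-0.05), Mir675 (-0.26), Mir145a (-0.36), Mir337 (-0.26) and Mir483 (-0.26) were lower beside Mir455, and Mir199a-2 (0.16) was higher beside Mir27b and Mir34a. Mir34a was not past it with DESeq2 size factors (adjusted p = 0.0809) or with no count minimum (adjusted p = 0.0563), both in the exact binomial test. The members tested in these lists, Mir193b and Mir365-2, were not past the threshold.

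Defining miRNAs of limb tissues were present in both libraries, with Mir140 for cartilage, Mir203 at 72531 ± 6726 CPM for keratinocytes, Mir126a at 22336 ± 903 CPM for endothelium and Mir206 at 7919 ± 4429 CPM for skeletal muscle (SD, n = 2). Markers of blood were also present, with Mir223 of leukocytes at 433 ± 8.91 CPM and Mir451a of erythroid cells at 332 ± 9.92 CPM. Mir122 of hepatocytes stood at 71.8 ± 20.3 CPM, above Mir193b, and was higher in replicate 2 (log2 ratio 0.58, adjusted p = 8.56e-07, exact binomial test). The neuronal Mir124a-1, Mir124a-2 and Mir9-2 had 0 counts, and as members of families with several copies they may lack reads with several alignments. Of further copies outside the marker list, Mir9-3 had 9 counts in replicate 1 and 7 in replicate 2, and Mir124a-3 had 0 in both. These copies were looked up after the marker values were seen. The 4 muscle markers were lower in replicate 2, with log2 ratios from -1.46 to -1.01, all past the threshold. The part of muscle or liver markers in the members' values was not tested.

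The genes nearest to each member in level over both libraries were picked by the distance of log2(CPM + 1) over the 2 libraries, among detected genes. For Mir193b these were Mir1247 (296 and 324 counts), Mir5099 (267 and 345) and Mir449a (254 and 284), at distances of 0.14 to 0.16. For Mir193a they were Mir150 (56 and 87 counts), Mir34b (59 and 72) and Mir1298 (64 and 94), and Mir150 was closest with a distance of 0.04. For Mir365-2 they were Mir7083 (16 and 17 counts), Mir7654 (16 and 18) and Mir3572 (14 and 18), at distances of 0.10 to 0.15. None of these 9 genes lies on chromosome 11 or 16. With 2 libraries of 1 tissue, such closeness describes equal counts and nothing more.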

How the data were processed

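The files the authors deposited hold raw counts of reads for each miRNA gene, and the README beside them names mm10 and annotation M4. Per the labels, total RNA was used and fragments below 30 nt were kept. The aligner, counter and trimming are not given in the sources used here, nor is the number of mismatches an alignment may hold. The columns had no header. In all 1973 genes the first count column equalled the others added together, and the second, with nearly all counts, was taken as sense. Reads with several alignments, 29.4% and 29.7% of the 9187400 and 10851823 reads, were on a line of their own and were not added to the library totals. These numbers of reads were obtained by adding the sense counts of genes to the separate lines. They assume that no read entered both a gene and such a line.

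By gene identifier 1894 of the 1973 genes matched GENCODE M21 on GRCm38, the assembly of mm10. Sequences came from RefSeq on GRCm38.p6, where 916 of the counted genes were listed by symbol with a mature arm. Intervals are Wilson 95% for shares and exact Clopper-Pearson 95% for ratios, and like floors and tests they cover counting error only. With 1 group no quasi-likelihood test could be made, so libraries were compared by exact binomial and Fisher tests (scipy 1.17.1, Python 3.11.15). The binomial test alone was run on simulated libraries. These held counting error and no variation between pools, so that run does not show how the test behaves with such variation. These p-values compare 2 libraries, not conditions. Alternatives used edgeR 4.0.16 and DESeq2 1.42.0 in R 4.3.3 for scaling, other count minimums, other totals and 1 replicate at a time. Members, lists and tests were chosen with earlier results of these data known. Named genes are the 4 members, the 3 detected genes nearest to each detected member, the detected genes of the 2 lists, genes with a member's seed and the tissue markers.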

Additional observations from a re-analysis of the deposited data

How the results depend on the processing

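Counting reads with several alignments in the library total moved mean CPM to 38.1 for Mir193b, 9.03 for Mir193a and 2.03 for Mir365-2, and the share of the 4 genes to 0.00498%, since the total then grows by the multi-aligned reads. Mir365-1 also fell, from 1.07 to 0.657 CPM, and counts as kept below only because its replicate SD was 1.51 CPM. With no count minimum, 1 member (Mir365-1) passed the threshold in place of 0. With at least 100 counts Mir193b alone could be tested, and Mir365-1 was testable only with no minimum. Of 49 alternative values other than those with a replicate left out and the strand setting for ratios, 44 kept their direction and side of the threshold or moved by less than the replicate SD (counts of genes, by at most 1.5 times), TMM and DESeq2 size factors included. Ratios between members could not move with the strand setting, since no member had antisense counts. Leaving out 1 of 2 replicates moves a mean by a fixed part of its SD and so says nothing about stability. With 1 replicate left out, mean CPM ranged from 60.6 to 63.6 (Mir193b), 12.9 to 16.5 (Mir193a), 3.11 to 3.52 (Mir365-2) and 0 to 2.14 (Mir365-1, which rests on replicate 2). No paired analysis was possible because the series has 1 group.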
